A study of Homo sapiens with 20 samples.

Results

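The comparison spans the whole differentiation protocol of HepaRG cells, from D4, the 4th day after seeding, to D30 + DMSO, day 30 of a culture that received 2% dimethyl sulfoxide (DMSO) from day 15. Its members are the 4 arrays labelled day 4 and the 4 arrays labelled day 30 plus DMSO, 8 of the 20 arrays of the series, and they were compared over all 22069 genes that passed a filter on dim probes. HepaRG is a line derived from a human hepatoma, and its progenitor-like cells form hepatocyte-like and biliary-like cells in culture. Cy3 was the single dye, and the arrays were of Agilent's 8x60K format. The other arrays of the series, 4 for each of D15, D30 − DMSO and D34 ± DMSO, stand inside or after this span, and D15 and D30 − DMSO are used below to divide it. Both ends were grown in William's E medium with serum, insulin and hydrocortisone. The length of exposure to these agents differs between the ends and cannot be told apart from culture time. D4 cells were never given DMSO, so culture time and DMSO cannot be told apart in D4 against D30 + DMSO alone. All arrays come from 1 cell line. The study's methods name 4 independent biological replicates per time point, which the labels do not state. The p-values measure only the spread between these samples.

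A hepatocyte secretes most proteins of the blood plasma, makes bile acids and urea, releases glucose during fasting, and clears drugs with cytochrome P450 and conjugating enzymes. These functions are switched on by a network of liver transcription factors and nuclear receptors as the cell stops dividing. Dividing progenitor-like cells instead carry the genes of DNA replication and mitosis, and in culture often those of a spread, contractile cell with its own matrix. DMSO is the usual last step of HepaRG culture, used to bring hepatocyte-like cells to high metabolic activity.

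Signals are given on a log2 scale on which 0 is the 75th percentile of the array over its probes, so that values of 1 gene can be compared between arrays but not values of different genes. A value of -8.58 is the floor given to signals of 1 intensity unit or less after scaling, among them those at or below 0 after background subtraction, and values at the floor have no order. The 75th percentile lay between 434.3 and 526 intensity units on the D4 arrays and between 301.2 and 357.2 on the D30 + DMSO arrays. Between 61.1% and 73.7% of spots at D4, and between 62.9% and 72.7% at D30 + DMSO, were well above background. Across genes, arrays of the same end correlated with r between 0.965 and 0.992 over 12 pairs, and arrays of different ends with r between 0.870 and 0.914 over 16 pairs, where genes are not independent replicates. D4 replicate 3 shares a slide with D30 + DMSO replicates 1 and 2, and D4 replicate 4 shares a slide, scanned in another session, with D30 + DMSO replicates 3 and 4. D4 replicates 1 and 2 lie on other slides.

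The ends of the protocol differed in many genes, about as many in each direction. Of the 22069 genes tested, 4067 (18.4%) were called, which means that limma gave an adjusted p (Benjamini-Hochberg) under 0.005 and that the ends differed by over 2-fold. Of these, 1987 (9%) rose and 2080 (9.42%) fell from D4 to D30 + DMSO, and the median log2 change over all genes was 0.04. The changes that rose reached further: 274 genes rose by more than 16-fold and 132 fell by more than 16-fold, while 826 rose and 811 fell by more than 4-fold. The arrays of the ends did not overlap for 8296 genes (37.6%): the 4 D30 + DMSO arrays lay above all 4 D4 arrays for 3997 genes (18.1%) and below all of them for 4299 (19.5%). The plot of mean signals at D4 and at D30 + DMSO shows both sets of called genes on either side of the diagonal. A fit that blocked on the slide called 2368 genes higher and 2332 lower, and the same fit to only the 8 arrays compared called 1684 and 1625. In the latter fit, D4 replicates 1 and 2 are alone on their slides and add nothing to the contrast. A call lost in it is therefore also a call made with fewer D4 arrays. Within the slide that holds D4 replicate 3, 1986 of the 1987 genes that rose were higher and all 2080 genes that fell were lower, and within the slide that holds D4 replicate 4, this was so for all 1987 and all 2080. These genes were called with the same arrays, so the within-slide counts are a description and no independent check.

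**Figure D1:**
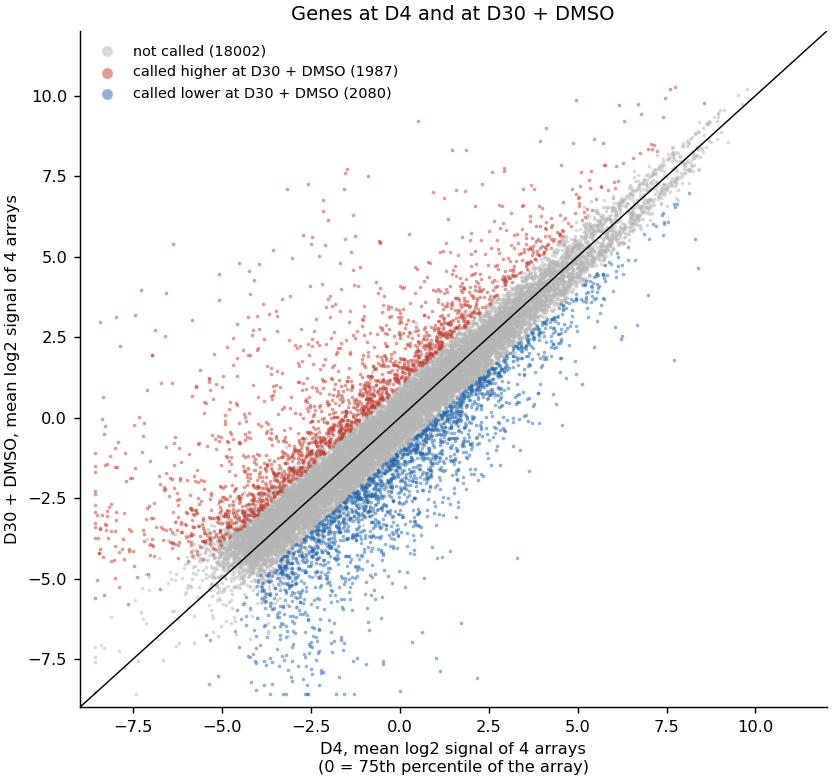
Each point is 1 of 22069 genes, with its mean log2 signal of 4 arrays at D4 (horizontal) and at D30 + DMSO (vertical), where 0 is the 75th percentile of an array and the line marks equal signal. The 1987 genes called higher (red) spread further from the line, up to the upper left, than the 2080 called lower (blue). Signals at the floor are included, and 18002 genes were not called (grey).

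The genes were grouped into lists by function, and the count and median of each list are given as a description. Counts are over the members that passed the filter on dim probes. They are to be read beside the shares of all genes, 9% higher and 9.42% lower, and the median log2 change over all genes, 0.04. In cultures of mixed cells, fewer cells of a type and less RNA per cell cannot be told apart, which holds for every list below. The proteins that hepatocytes secrete into plasma were higher at D30 + DMSO in nearly the whole list. Of 31 tested genes, 27 (87.1%) rose and 0 fell, with a median log2 change of 4.49, where 9% of all genes rose. ALB, the gene of albumin, read 7.0, 8.27, 7.09 and 8.02 on the D4 arrays and 10.05, 9.82, 10.69 and 10.34 on the D30 + DMSO arrays (log2 change 2.63 ± 0.26 SE, adjusted p = 1.21e-07). Albumin RNA was thus already well above background on every D4 array, and its rise of 6.19-fold was one of the smaller ones of the list. TTR, which encodes the thyroid hormone carrier transthyretin, read 4.94, 5.07, 4.43 and 5.32 at D4 and 9.61, 9.42, 10.44 and 9.98 at D30 + DMSO. TF, the iron carrier transferrin, rose by 6.43 ± 0.32, and SERPINA1, the elastase inhibitor alpha-1-antitrypsin, by 2.89 ± 0.26. The largest rises of the list were in genes of clotting control and kinins: SERPIND1, or heparin cofactor, rose by 8.74 ± 0.27 on the log2 scale, the kininogen gene KNG1 by 8.66 ± 0.47 and SERPINC1, or antithrombin, by 8.40 ± 0.34. The 4 genes of the list that were not called, named after their values were seen, were A1BG (1.27), A2M (0.67), CP (0.19) and ITIH3 (0.12).

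Clotting factors and complement showed the same picture, with 27 of 30 genes higher, 0 lower and a median log2 change of 3.99. PLG, which encodes plasminogen, the precursor of the clot-dissolving protease, read -5.64, -8.58, -6.54 and -5.53 at D4, where no array was well above background, and 3.65, 3.79, 3.54 and 4.52 at D30 + DMSO. Set against the faintest signal that passed as well above background on each D4 array, this is a rise of at least 429.8-fold, and folds given below as "at least" were computed in this way. The vitamin K-dependent factor F9 read -6.79, -8.58, -8.58 and -3.87 at D4 and 2.65, 2.11, 2.08 and 0.95 at D30 + DMSO, and only D4 replicate 4 was well above background. The prothrombin gene F2 rose by 4.44 ± 0.30 and F12, the first factor of the contact pathway, by 8.13 ± 0.40. C3, the central complement component, was high at both ends, from 4.71 to 5.82 at D4 and from 6.59 to 7.0 at D30 + DMSO, and rose by 1.79 ± 0.22. PROS1 (0.05), MASP1 (0.87) and MBL2 (0.96), named after their values were seen, were the members not called.

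Of 17 genes of apolipoproteins and lipoprotein assembly, 12 rose and 0 fell, with a median of 3.04. APOC3, an apolipoprotein that slows the breakdown of triglyceride-rich particles, read 0.70, -0.10, -0.43 and 1.89 at D4 and 9.22, 9.13, 9.57 and 8.98 at D30 + DMSO, a log2 change of 8.71 ± 0.38. APOA1, the main protein of high-density lipoprotein, rose by 6.86 ± 0.39, MTTP, which loads lipid onto apolipoprotein B, by 5.52 ± 0.31 and APOB itself by 2.90 ± 0.28. APOA4 had 0 of 4 D4 arrays well above background and read -1.01, -0.74, -0.52 and 0.26 at D30 + DMSO, at least 20.7-fold higher. Members not called included LCAT, which esterifies cholesterol in plasma (log2 change -1.17), APOC2 (1.26) and PLTP (0.03), named after their values were seen.

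**Figure D2:**
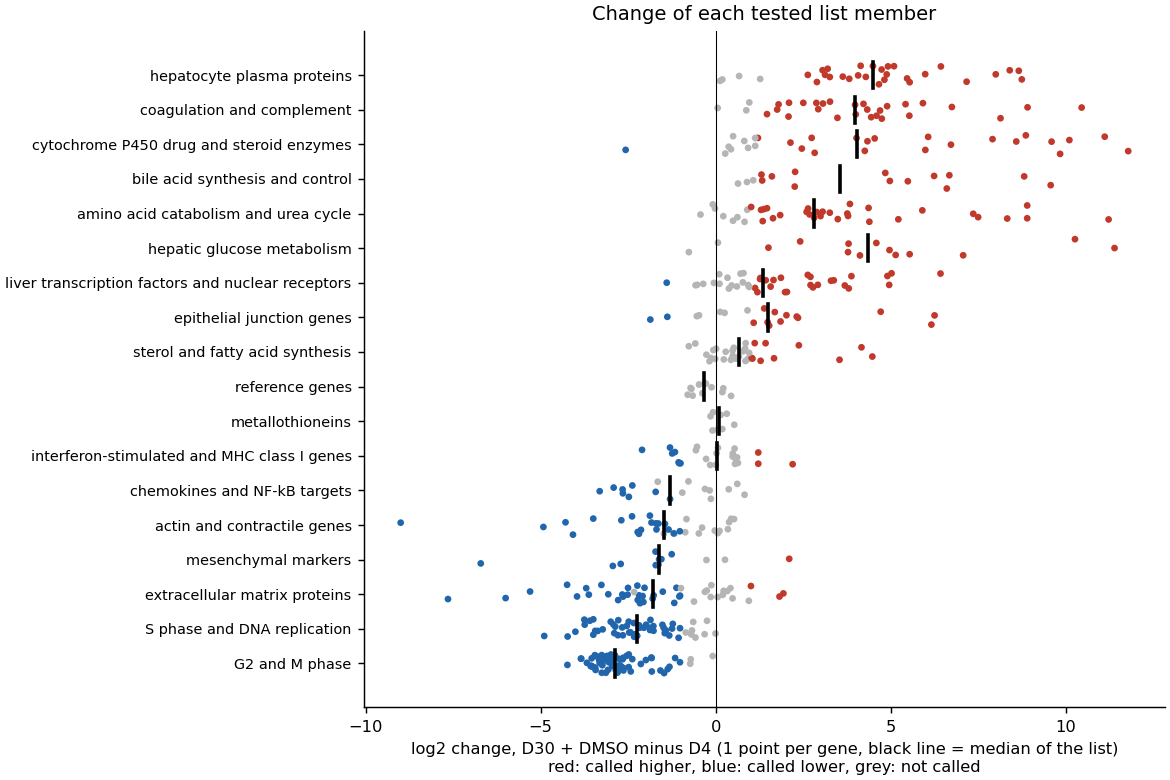
Each point is 1 tested gene of a list, at its log2 change from D4 to D30 + DMSO, red where called higher, blue where called lower and grey where not called, and the black line is the median of the list. All 12 reference genes and all 8 metallothioneins are grey, the liver lists lie mostly to the right of 0, and both cell cycle lists lie to the left with medians of -2.25 and -2.89.

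The cytochrome P450 enzymes, which oxidise drugs and steroids, held some of the largest rises of the whole comparison. Of 29 genes tested, 20 rose and 1 fell, with a median log2 change of 4.02. CYP3A4, the main drug-oxidising P450 of adult liver, read -2.65, -2.31, -2.58 and -2.78 at D4 and 7.18, 7.11, 7.46 and 7.27 at D30 + DMSO (log2 change 9.83 ± 0.25 SE, 913-fold, adjusted p = 7.27e-15). The arrays of each end lay close together and far from those of the other. CYP2E1, which oxidises ethanol, read -6.66, -8.58, -7.69 and -8.58 at D4, below the call for signal on all 4 arrays, and 2.02, 2.18, 2.34 and 2.34 at D30 + DMSO, at least 136-fold higher. CYP2C19 was at least 255-fold and CYP2A7 at least 193-fold higher by the same measure. CYP3A7, the fetal form of the CYP3A family, rose by 6.07 ± 0.41, and CYP1A2, which oxidises caffeine, by 2.74 ± 0.28. CYP2B6 rose by 8.58 ± 0.26 by the probe that stands for it, while its second probe changed by 0.62 and was not called. These families hold close relatives, and how far their probes share targets was not tested. CYP1B1, a P450 found mostly outside the liver, fell by 2.57 on the log2 scale and was the only member that fell.

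Among the enzymes that conjugate drugs and steroids, 16 of 33 rose and 0 fell, with a median of 1.05. The sulfotransferase SULT2A1, which acts on steroids and bile acids, rose by 8.09 ± 0.37 to 5.73, 5.70, 5.74 and 5.32. Of the glucuronosyltransferases, UGT2B4 rose by 7.46 ± 0.40, UGT2B15 by 7.11 ± 0.40 and UGT2B7 by 3.09 ± 0.24. Alcohol, aldehyde and other oxidising enzymes rose in 27 of 39 cases and fell in 1, with a median of 1.55. ADH1B, an alcohol dehydrogenase, read -8.58, -7.69, -7.08 and -6.45 at D4 and 3.71, 3.58, 2.99 and 2.43 at D30 + DMSO, at least 265-fold higher. ADH1A and ADH4 rose by 8.78 ± 0.41 and 8.73 ± 0.44, and ALDH2, which removes acetaldehyde, rose by 3.88 ± 0.18. CES1, a carboxylesterase that activates ester prodrugs, was already high at D4, from 8.12 to 8.83, and rose by 1.23 ± 0.17, a call lost in the fit of the 8 arrays with slides as blocks (1.14). These values are of the probe that stands for it, and its other probes rose by 1.974 and 1.985 and were called. The single member that fell was ALDH1A3, an aldehyde dehydrogenase that makes retinoic acid, with a log2 change of -4.99.

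Uptake and export proteins of the hepatocyte rose in 17 of 25 cases and fell in 1, with a median of 2.80. SLCO1B1, which takes up bilirubin and statins, read -4.63, -3.86, -5.22 and -3.97 at D4 and 2.23, 2.29, 1.89 and 2.04 at D30 + DMSO. SLC10A1, or NTCP, the sodium-dependent bile acid importer and the entry receptor of hepatitis B virus, read -4.97, -4.80, -4.91 and -3.67 at D4 and 0.91, 1.19, 1.77 and 1.30 at D30 + DMSO. The sterol exporter ABCG8 rose by 9.32 ± 0.40. ABCC2, an exporter into bile, rose by 1.28 ± 0.24, and ABCB11, the bile salt export pump, read -3.55, -4.41, -4.66 and -8.58 at D30 + DMSO, with 0 of 4 D4 arrays and 2 of 4 D30 + DMSO arrays well above background, and was not called (fitted log2 change 1.95 ± 0.76, adjusted p = 0.0481). Without D30 + DMSO replicate 4 its fitted log2 change was 3.05 and it was called. SLCO1B3, a close relative of SLCO1B1, was the member that fell, with a log2 change of -3.61. Bile acid synthesis and its control rose in 13 of 16 cases and fell in 0, with a median of 3.56. CYP7A1, the rate-limiting enzyme of the classic pathway, read -4.16, -7.55, -5.20 and -5.99 at D4 and 1.83, 1.60, 1.18 and -0.82 at D30 + DMSO, at least 47.6-fold higher. CYP8B1, which makes cholic acid, rose by 9.57 ± 0.51, SLC27A5, which activates bile acids, by 8.81 ± 0.28, BAAT, which couples them to amino acids, by 4.97 ± 0.33, and NR0B2, the receptor that represses the pathway, by 6.60 ± 0.32.

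Amino acid breakdown and the urea cycle rose in 29 of 37 cases and fell in 0, with a median log2 change of 2.81. ARG1, the arginase that releases urea, read -7.04, -6.59, -8.58 and -6.87 at D4, with no array well above background, and 4.55, 4.40, 3.98 and 2.88 at D30 + DMSO, at least 453-fold higher. OTC, the mitochondrial step that forms citrulline, was at least 112-fold higher. CPS1, the entry step of the cycle, read 0.26, 0.01, -0.48 and 0.18 at D4 and 4.21, 4.19, 3.24 and 1.36 at D30 + DMSO, a log2 change of 3.26 ± 0.48. The D30 + DMSO arrays differed widely from each other in CPS1, and all lay above the D4 arrays. In the fit of the 8 arrays with slides as blocks, CPS1 was not called (3.40, adjusted p = 0.0113 by limma). AGXT, which detoxifies glyoxylate, rose by 8.90 ± 0.30, and TAT, which breaks down tyrosine, by 3.83 ± 0.40.

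Hepatic glucose metabolism rose in 12 of 14 cases and fell in 0, with a median of 4.35. G6PC1, the catalytic subunit of glucose-6-phosphatase that lets the liver release glucose, read -8.58, -8.27, -8.58 and -8.28 at D4 and 2.98, 3.13, 3.29 and 2.46 at D30 + DMSO, at least 229-fold higher. PCK1, an enzyme of glucose synthesis, was at the floor on all 4 D4 arrays and read -1.56, -1.62, -1.03 and -1.86 at D30 + DMSO, at least 10.2-fold higher. The liver pyruvate kinase PKLR rose by 3.78 ± 0.17. Glycolytic isoenzymes of other tissues rose in 0 of 15 cases and fell in 2, where 9.42% of all genes fell, with a median of -0.29. These were PKM (-1.80 ± 0.41) and PFKP (-2.07 ± 0.18), and the call for PKM was lost without D4 replicate 4, D30 + DMSO replicate 1 or D30 + DMSO replicate 2, at log2 changes of -1.55, -1.60 and -1.68. The ends overlapped for LDHA (-0.29 ± 0.19) and for HK2 (0.02 ± 0.29).

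Fatty acid oxidation and ketone synthesis rose in 22 of 34 cases and fell in 0, with a median of 1.30. FABP1, the liver fatty acid carrier, read -2.23, -0.30, -3.04 and -0.59 at D4 and 7.95, 7.83, 7.79 and 6.84 at D30 + DMSO, a log2 change of 9.14 ± 0.45. BDH1, which forms beta-hydroxybutyrate, was at least 169-fold higher. CPT1A, the gate of fatty acid entry into mitochondria, changed little, by 0.47 ± 0.11, and was not called. PPARA, the receptor that governs many of these genes, rose by 1.96 ± 0.24 by the probe that stands for it, and its other probe changed by 0.96 and was not called. Sterol and fatty acid synthesis moved less, with 10 of 33 genes higher, 0 lower and a median of 0.66. DGAT2, the last step of triglyceride synthesis, rose by 4.47 ± 0.22 and MLXIPL, the glucose-responsive regulator of lipid synthesis, by 3.54 ± 0.33. Some enzymes did not pass the 2-fold limit: the log2 change was 0.84 ± 0.19 for FASN of fatty acid synthesis and 0.48 ± 0.13 for the desaturase SCD.

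Of 40 liver transcription factors and nuclear receptors, 24 rose and 1 fell, with a median of 1.35. CEBPA, a regulator of metabolic genes in resting hepatocytes, read -1.43, -1.27, -1.31 and -0.77 at D4 and 2.58, 2.66, 2.69 and 2.79 at D30 + DMSO (log2 change 3.88 ± 0.17 SE, adjusted p = 4.26e-12). The receptors that sense drugs showed larger changes: NR1I3, or CAR, read -4.61, -4.85, -4.10 and -4.71 at D4 and 2.00, 1.82, 2.30 and 1.29 at D30 + DMSO, and NR1I2, or PXR, rose by 4.95 ± 0.26. ONECUT1, a factor of early liver development, rose by 5.02 ± 0.41. HNF4A, the central hepatocyte regulator, had no D4 array well above background by its tested probe and read -3.09, -3.18, -3.10 and -3.64 at D30 + DMSO, at least 3.07-fold higher, and was not called with the normexp background correction (0.79). PPARG, the adipocyte receptor, was the member that fell, by 1.40 on the log2 scale. Factors of the endoderm and of hormone response such as FOXA2 (0.77), FOXA3 (0.60), CEBPB (0.10) and the glucocorticoid receptor NR3C1 (0.11), named after their values were seen, were not called.

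The stretch of 250 bases before the RefSeq start (GRCh38.p14) is shown for ALB, at chr4:73404037-73404286 on the plus strand, and for G6PC1, at chr17:42900549-42900798 on the plus strand, as examples of the liver genes that rose. Capitals mark GTTAAT, the letters of a motif known from liver promoters.
ALB: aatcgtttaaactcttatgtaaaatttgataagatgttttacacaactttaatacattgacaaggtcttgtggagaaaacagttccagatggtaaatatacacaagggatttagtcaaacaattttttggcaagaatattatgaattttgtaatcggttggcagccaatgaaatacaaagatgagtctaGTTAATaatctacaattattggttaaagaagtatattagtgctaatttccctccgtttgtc
G6PC1: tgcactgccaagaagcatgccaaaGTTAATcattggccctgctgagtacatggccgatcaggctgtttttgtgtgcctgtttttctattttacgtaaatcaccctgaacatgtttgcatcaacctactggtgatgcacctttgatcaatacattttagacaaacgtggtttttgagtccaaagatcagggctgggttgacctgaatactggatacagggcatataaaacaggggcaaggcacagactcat
GTTAAT, or ATTAAC on the other strand, was present before the start of 8 of the 25 plasma protein genes with a promoter in the table (32%), of 5 of 26 clotting and complement genes (19.2%) and of 2 of 22 P450 genes (9.09%). It was present in 421 of the 11229 tested genes with such a promoter (3.75%). These are matches of letters in a short window, with no test, and a gene without a match only lacks these letters there.

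**Figure D3:**
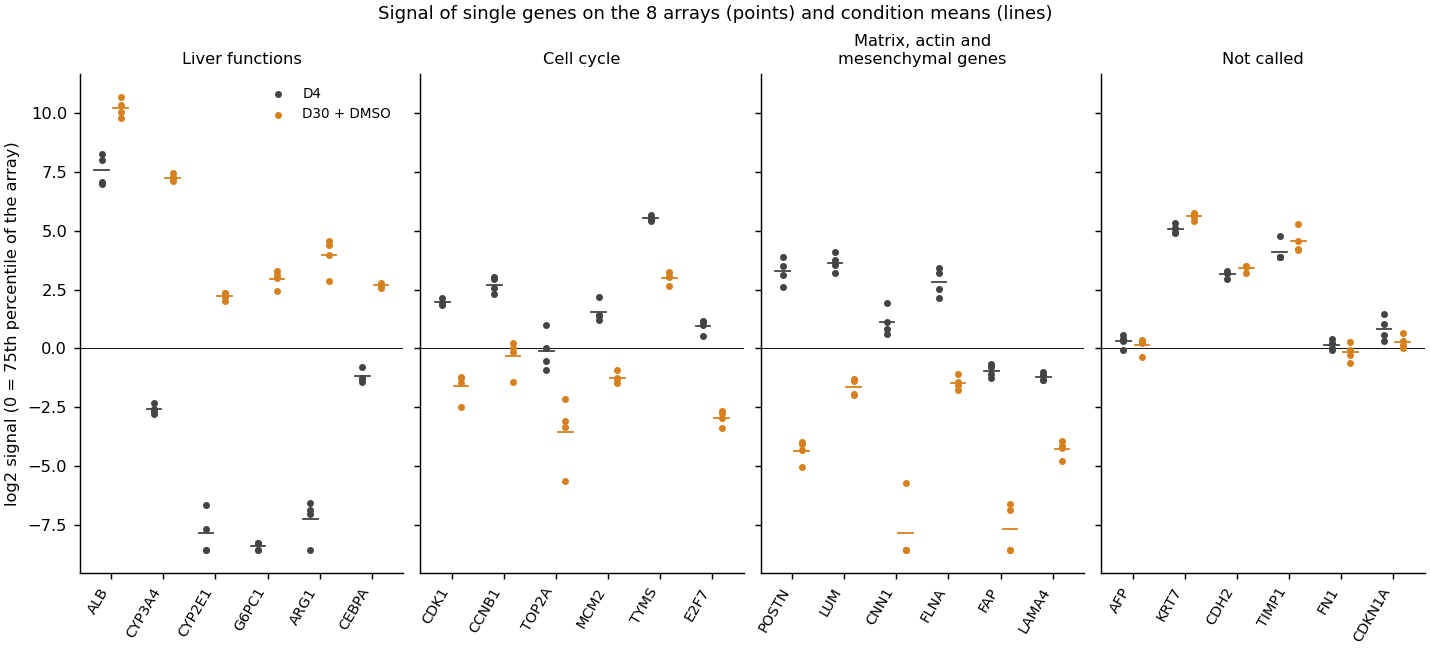
Points are the log2 signals of 6 genes per panel on the 4 D4 arrays (grey) and the 4 D30 + DMSO arrays (orange), lines are the means, and 0 is the 75th percentile of an array. Liver genes such as CYP3A4 rose from -2.58 to 7.26, cell cycle genes such as CDK1 fell from 1.96 to -1.61, and the genes of the last panel, among them AFP and FN1, were not called.

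The cell cycle genes fell together. Of 70 genes of G2 and M phase, 66 (94.3%) fell and 0 rose, with a median log2 change of -2.89, and of 55 genes of S phase and DNA replication 47 (85.5%) fell and 0 rose, with a median of -2.25, where 9.42% of all genes fell. CDK1, the kinase that drives entry into mitosis, read 1.93, 1.91, 1.85 and 2.16 at D4 and -2.51, -1.23, -1.24 and -1.47 at D30 + DMSO (log2 change -3.57 ± 0.29 SE, 11.9-fold lower, adjusted p = 1.24e-08). All 4 arrays were still well above background at D30 + DMSO, so the RNA of this kinase stayed measurable. CCNB1, its cyclin partner, read 3.03, 2.33, 2.57 and 2.94 at D4 and -1.43, 0.01, 0.24 and -0.14 at D30 + DMSO. The steepest falls of the list were in genes of the mitotic spindle and of cell separation, CEP55 with -4.24 ± 0.29 and DLGAP5 with -3.85 ± 0.39. TOP2A, the topoisomerase that untangles chromosomes, read 0.03, -0.54, -0.91 and 0.98 at D4 and -5.64, -3.34, -3.11 and -2.16 at D30 + DMSO, and the proliferation marker MKI67 fell by 1.48 on the log2 scale, with its other probes at -3.48 and -2.21. With only the 8 arrays and slides as blocks, TOP2A (-3.60) and MKI67 (-1.30) were not called. The 4 genes of G2 and M phase not called were CENPI (-2.93), ESPL1 (-0.73), BUB3 (-0.71) and NCAPH (-0.09), named after their values were seen, and other probes of CENPI (-4.21) and BUB3 (-1.21) were called lower. D30 + DMSO replicate 1 was the lowest of its group in all of these genes from CDK1 to MKI67, and its mean over the G2 and M phase list was -2.81, against -1.80 to -1.75 on the other 3 arrays and 0.42 to 0.92 at D4.

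Among the genes of DNA replication, TYMS, which makes thymidylate, read 5.60, 5.43, 5.51 and 5.66 at D4 and 2.65, 3.27, 3.08 and 3.04 at D30 + DMSO, a log2 change of -2.54 ± 0.16. The replicative helicase subunit MCM2 fell by 2.78, the ribonucleotide reductase subunit RRM2 by 2.90 and the sliding clamp PCNA by 1.86 on the log2 scale. UHRF1, which carries DNA methylation through replication, and the activator E2F2 fell most in the list, by 4.90 and 4.23. The other probe of UHRF1 fell by 2.23, so its rank depends on the probe. The genes that control G1 were mixed. Of 29, 7 fell (24.1%) and 2 rose (6.9%), where 9.42% of all genes fell and 9% rose, with a median of -0.56. E2F7, an E2F family repressor of the cycle, fell by 3.90, while BTG1, an inhibitor of proliferation, rose by 2.12 ± 0.28. The ends overlapped for cyclin D1, CCND1 (log2 change -0.33 ± 0.37), for the inhibitor p21, CDKN1A (-0.56 ± 0.26), and for BTG2 (-0.62 ± 0.23), and none of these was called.

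The same stretch of 250 bases is shown for 3 genes of the G2 and M phase list, CDK1 at chr10:60778081-60778330 on the plus strand, TOP2A at chr17:40417897-40418146 on the minus strand and CEP55 at chr10:93496362-93496611 on the plus strand. Capitals mark CCAAT and TTTGAA, the letters of the CCAAT box and of the cell cycle homology region, or their reverse complements ATTGG and TTCAAA.
CDK1: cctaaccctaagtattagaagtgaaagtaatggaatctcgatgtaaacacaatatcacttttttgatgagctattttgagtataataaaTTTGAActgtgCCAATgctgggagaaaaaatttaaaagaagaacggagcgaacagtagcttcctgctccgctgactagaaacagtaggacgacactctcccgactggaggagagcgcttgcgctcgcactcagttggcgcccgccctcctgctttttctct
TOP2A: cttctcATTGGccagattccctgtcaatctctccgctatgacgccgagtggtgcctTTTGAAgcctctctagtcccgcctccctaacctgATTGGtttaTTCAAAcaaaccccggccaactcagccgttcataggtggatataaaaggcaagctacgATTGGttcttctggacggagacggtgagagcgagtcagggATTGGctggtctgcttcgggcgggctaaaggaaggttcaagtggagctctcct
CEP55: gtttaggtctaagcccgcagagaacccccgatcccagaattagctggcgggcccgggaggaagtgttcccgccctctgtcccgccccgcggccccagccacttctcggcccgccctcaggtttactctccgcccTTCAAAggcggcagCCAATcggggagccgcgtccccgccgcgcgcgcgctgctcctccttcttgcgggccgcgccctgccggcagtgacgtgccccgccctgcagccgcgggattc
Of the 59 genes of the list with a promoter in the table, 30 held TTTGAA or TTCAAA (50.8%) and 42 held CCAAT or ATTGG (71.2%), where 9.38% and 35.1% of all tested genes with a promoter did. Lists that rose held these letters too. The first was in 7 of 25 plasma protein genes (28%), 8 of 26 clotting and complement genes (30.8%) and 1 of 22 P450 genes (4.55%). The second was in 13 of 25 plasma protein genes (52%), 11 of 22 P450 genes (50%) and 8 of 26 clotting and complement genes (30.8%). Of the 48 genes of S phase with a promoter, 1 held the first (2.08%) and 25 the second (52.1%). The letters of both motifs do not overlap in the printed stretches. GTTAAT or ATTAAC was present in 0 of the 59 genes of G2 and M phase and in 2 of the 48 of S phase (4.17%).

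Matrix genes fell in 28 of 45 cases and rose in 3, with a median log2 change of -1.80. POSTN, which encodes periostin, a matrix protein of wounds and tumour stroma, read 3.52, 3.13, 2.59 and 3.90 at D4 and -5.05, -3.98, -4.34 and -4.08 at D30 + DMSO (log2 change -7.65 ± 0.46 SE, adjusted p = 1.87e-10). LUM, the collagen-binding proteoglycan lumican, read 3.19, 4.10, 3.53 and 3.77 at D4 and -1.96, -1.38, -1.31 and -1.98 at D30 + DMSO. Both genes lay above the 75th percentile of the array at D4 and below it at D30 + DMSO on every array. COL1A1, a chain of the main fibrillar collagen, fell by 2.67 and COL4A1, a chain of basement membrane collagen, by 2.65 on the log2 scale, and HAPLN1, which links hyaluronan to proteoglycans, was at the floor on all 4 D30 + DMSO arrays and at least 4.63-fold lower. LAMA4, a laminin chain, fell by 3.07 by the probe that stands for it, but its other probes gave -1.22, 0.44 and 0.90, so the direction depends on the probe. FN1, or fibronectin, was not called (log2 change -0.31 ± 0.31), and its ends overlapped. The 3 members that rose, named after their values were seen, were COL18A1 (1.82), LAMA3 (1.93) and COL5A2 (1.00).

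Matrix proteases, their inhibitors and crosslinkers fell in 11 of 19 cases and rose in 1, with a median of -1.46. MMP2, a gelatinase, read -2.44, -1.96, -2.23 and -2.41 at D4 and was well above background on none of the D30 + DMSO arrays, at least 5.79-fold lower. The urokinase receptor PLAUR was at least 14.7-fold lower, the protease PAPPA fell by 3.77 on the log2 scale and matrilysin, MMP7, by 2.40. The inhibitor TIMP1 read 3.88, 3.87, 3.89 and 4.80 at D4 and 4.17, 4.24, 4.58 and 5.29 at D30 + DMSO, so the ends overlapped, and urokinase itself, PLAU, was not called (-0.96 ± 0.44). MMP19, named after its values were seen, was counted as the member that rose (2.74), but its other probe was called lower (-1.56), so the direction depends on the probe.

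Actin and contractile genes fell in 19 of 32 cases and rose in 0, with a median of -1.47. CNN1, or calponin, a smooth muscle actin-binding protein, read 1.95, 0.62, 1.14 and 0.82 at D4 and -8.58, -5.71, -8.58 and -8.58 at D30 + DMSO, at least 60.8-fold lower. The actin crosslinker FLNA read 3.22, 2.15, 2.53 and 3.42 at D4 and -1.77, -1.54, -1.45 and -1.09 at D30 + DMSO, a log2 change of -4.29 ± 0.44. Its other probe changed less (-1.38) and was called lower too. TAGLN fell by 2.13 and smooth muscle actin, ACTA2, by 1.45 on the log2 scale. Of 12 mesenchymal markers tested, 9 fell and 1 rose, with a median of -1.63. Another 5 were below the filter on dim probes. FAP, a membrane protease of activated fibroblasts, was at least 14.3-fold lower, the cadherin CDH11 fell by 2.94, vimentin (VIM) by 1.64 and the repressor SNAI2 by 1.55 on the log2 scale, while SNAI1, its relative, rose by 2.10. VIM (-1.38) and TAGLN (-2.36) were not called with only the 8 arrays and slides as blocks. N-cadherin, CDH2, which hepatocytes also carry, and ZEB1 were not called (0.26 ± 0.14 and -0.27 ± 0.26). Epithelial junction genes rose in 12 of 19 cases and fell in 2, with a median of 1.48. GJB1, the gap junction protein of hepatocytes, read -4.47, -4.31, -4.93 and -3.13 at D4 and 1.99, 1.72, 2.02 and 2.07 at D30 + DMSO, CLDN14 rose by 6.25 ± 0.48 and E-cadherin, CDH1, by 2.35 ± 0.29. The other gap junction gene GJA1 fell by 1.38 on the log2 scale and the leaky tight junction claudin CLDN2 by 1.87, both named after their values were seen, and the scaffold TJP1 was not called (-0.54 ± 0.14).

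Biliary and progenitor markers fell in 6 of 13 tested cases and rose in 1, with a median of -0.92. Another 6 were below the filter on dim probes. KRT19, a keratin of bile ducts, read 8.59, 7.74, 8.0 and 8.16 at D4 and 7.0, 6.83, 7.40 and 6.73 at D30 + DMSO (log2 change -1.13 ± 0.19 SE, adjusted p = 0.000102). KRT7, the other duct keratin, read 5.14, 4.95, 5.34 and 4.90 at D4 and 5.71, 5.59, 5.77 and 5.42 at D30 + DMSO, which was higher on all 4 arrays but not called (0.54 ± 0.16). The call for KRT19 was lost without D4 replicate 1 (-0.98) and in the fit of the 8 arrays with slides as blocks (-1.09). Both duct keratins were well above background on all 8 arrays. CD44 and CD24, surface proteins of progenitors, fell by 2.03 and 1.15 on the log2 scale, and SOX9, the duct and progenitor regulator, rose by 2.18 ± 0.26. The call for CD24 was lost without D30 + DMSO replicate 4 (-0.99) and with slides as blocks (-1.15). Of 10 fetal liver and oncofetal genes, 3 rose (30%) and 2 fell (20%), with a median of 0.05. AFP, the fetal counterpart of albumin, read 0.31, 0.56, 0.40 and -0.07 at D4 and 0.34, 0.32, 0.24 and -0.38 at D30 + DMSO, with a log2 change of -0.17 ± 0.18. GPC3, a proteoglycan of hepatoma, was not called either (0.49 ± 0.54), the imprinted RNA H19 fell by 4.10 on the log2 scale and the imprinted gene PEG10 rose by 2.38 ± 0.22. H19 was not called with only the 8 arrays and slides as blocks (-4.03).

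Chemokines and other NF-kB targets fell in 8 of 17 cases and rose in 0, with a median of -1.30. CCL2, which attracts monocytes, read 2.23, 2.86, 2.93 and 3.07 at D4 and 0.49, -0.24, -0.20 and -0.62 at D30 + DMSO, a log2 change of -2.92 ± 0.27. The cytokines LIF and IL6 fell by 3.32 and 2.65 and the adhesion protein ICAM1 by 2.38 on the log2 scale. CXCL8 ranged from -2.45 to 0.25 at D4 and from -4.32 to -1.96 at D30 + DMSO, overlapped and was not called (-1.66 ± 0.56), but was called without D4 replicate 1 (-2.14). Acute-phase proteins, which the liver makes in response to such cytokines, rose in 10 of 12 cases and fell in 0, with a median of 2.39. HP, or haptoglobin, rose by 2.53 ± 0.22 and LEAP2, a liver peptide, by 7.28 ± 0.48. SAA1 passed the test (1.36 ± 0.34, adjusted p = 0.00341), but D30 + DMSO replicate 4 read 7.05, within the D4 range of 6.21 to 7.40, while the other 3 arrays read 8.67 to 8.85. The call for SAA1 was lost without any 1 of D4 replicates 1, 3 and 4 or of D30 + DMSO replicates 1, 2 and 3, at log2 changes from 1.10 to 1.43. LBP, which binds bacterial lipopolysaccharide, was not called (-0.57 ± 0.39), with -0.52 in D30 + DMSO replicate 4 and 1.03 to 1.53 in the others. Of the 12 acute-phase genes, the D30 + DMSO arrays lay above all D4 arrays for 6, where 18.1% of all genes did so, and 6 rose in a fit of only the 8 arrays compared and 3 when that fit had the slide as a block.

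Interferon-stimulated and MHC class I genes showed no common direction, with 3 of 25 higher (12%), 7 lower (28%) and a median of 0.02. Without D4 replicate 4 or without D30 + DMSO replicate 4, 4 were lower. IRF7, an interferon regulator, rose by 2.19 ± 0.25, while B2M was not called (0.58 ± 0.14). The IGF and TGF-beta axes split evenly, 8 higher and 8 lower of 29 (27.6% each, against 9% and 9.42% of all genes). IGF1, the growth hormone target that the liver releases, read -4.12, -4.45, -5.00 and -4.51 at D4 and 0.19, -0.40, -0.80 and -2.01 at D30 + DMSO. The binding protein IGFBP1 rose by 1.79 ± 0.31 and the activin subunit INHBA by 1.76 ± 0.36, whereas TGFB2 fell by 4.48 on the log2 scale. Neither IGFBP1 (1.77) nor INHBA (1.75) was called with only the 8 arrays and slides as blocks. Of 9 Wnt targets, 2 rose (22.2%) and 3 fell (33.3%). The secreted inhibitor DKK1 read 4.00, 4.65, 4.28 and 4.32 at D4 and 0.84, 0.62, 0.67 and 0.84 at D30 + DMSO, the transcription factor LEF1 fell by 2.38 and RNF43, a membrane inhibitor of the pathway, rose by 2.64 ± 0.21. Antioxidant and NRF2 targets rose in 4 of 18 cases (22.2%) and fell in 1 (5.56%). CAT, or catalase, rose by 2.65 ± 0.18, GPX2 by 4.69 ± 0.28 and GCLC, of glutathione synthesis, by 1.43 ± 0.22.

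The 15 genes of ATF4 stress and serine synthesis had 3 higher (20%) and 2 lower (13.3%), where 9% of all genes rose and 9.42% fell. The 37 histone and DNA modifying enzymes had 4 higher and 4 lower (10.8% each). Among these, EZH2, the histone methyltransferase, fell by 1.99 and DNMT1, which copies DNA methylation, by 1.20 on the log2 scale, and the acetyltransferase KAT2B rose by 1.41 ± 0.14. None of the 12 reference genes was called by limma, 0 higher and 0 lower, with log2 changes from -0.80 to 0.44 and a median of -0.35, and 5 of them lay lower on all D30 + DMSO arrays than on any D4 array, where 19.5% of all genes did. Another probe of the reference gene YWHAZ was called lower (-1.06). With quantile normalization ACTB, or beta-actin, was called lower (-1.27). None of the 8 metallothioneins was called either, with changes from -0.15 to 0.53, and MT2A read 8.77, 8.95, 9.21 and 8.71 at D4 and 9.24, 8.94, 9.54 and 9.18 at D30 + DMSO. Another probe of MT1X was called higher (1.92), where the probe that stands for it was not (0.53).

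Some genes crossed the limit of detection in the course of the protocol. A set of 122 genes was well above background on 0 of 4 D4 arrays and on 4 of 4 D30 + DMSO arrays, of which 119 were called and 41 were at least 10-fold higher. The highest of these bounds were those of ARG1, PLG, ADH1B, CYP2C19, G6PC1, CYP2A7, BDH1 and CYP2E1, all described above as enzymes or secreted proteins of the hepatocyte. The opposite set held 151 genes, seen on 4 of 4 D4 arrays and on 0 of 4 D30 + DMSO arrays, of which 143 were called and 23 were at least 10-fold lower. Both sets were chosen by their signal on these same arrays, so the counts of calls are a description and no independent check. SPOCD1, a gene of transposon silencing in germ cells, read 2.72, 2.17, 2.06 and 1.76 at D4 and -8.58, -8.58, -8.44 and -6.73 at D30 + DMSO, at least 125-fold lower. CNN1 followed with at least 60.8-fold and AMTN, the enamel protein amelotin, with at least 56.2-fold. The platelet chemokine PPBP was at least 42.7-fold lower, the egg coat gene ZP1 at least 35.3-fold, the lymphocyte receptor IL7R at least 27.9-fold, CXCL14 at least 20.03-fold and TRIML2 at least 20.02-fold. IL7R read 0.04, 0.31, 0.09 and -0.41 at D4 and stood at or near the floor on every D30 + DMSO array. Several of these are known from tissues other than liver. IGFL3 (-8.10 ± 0.53), EPYC, a matrix proteoglycan (at least 11.3-fold lower), and PSG3, a pregnancy glycoprotein (at least 9.42-fold lower), completed the largest fitted falls. Signals at the floor enter the fitted changes, so this is not a rank of measured falls.

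The D15 arrays divide the span into an earlier part without DMSO and a later part with it. These comparisons share arrays with each other and with the full span, so their values are given side by side, and the difference between the parts was not tested. From D4 to D15, 2113 genes were called (9.57%), 1267 higher (5.74%) and 846 lower (3.83%). From D15 to D30 + DMSO, 1439 were called (6.52%), 495 higher (2.24%) and 944 lower (4.28%). By fitted change, with signals at the floor included, genes that rose by more than 16-fold numbered 190 in the earlier part and 19 in the later. Those that fell by as much numbered 16 and 33. The plasma protein list rose in 31 of 31 cases by D15, with a median of 3.95, and from D15 to D30 + DMSO in 7 cases, with 4 lower and a median of 0.71. ALB changed by 2.50 in the earlier part and by 0.12 in the later. The cell cycle lists were of the same kind: 64 of 70 genes of G2 and M phase and 45 of 55 of S phase fell by D15, and 2 and 2 fell later. CDK1 changed by -3.30 and then by -0.28.

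Other lists changed in both parts. Of the 29 P450 genes, 15 rose by D15 and 14 rose from D15 to D30 + DMSO, with medians of 1.86 and 1.5. CYP3A4 rose by 4.18 and then by 5.65, and CYP1A2 changed by 0.41, which was not called, and then by 2.33. CYP2E1 was well above background on 0 of 4 arrays at D4, 2 of 4 at D15 and 4 of 4 at D30 + DMSO. Amino acid breakdown and the urea cycle rose in 23 of 37 cases by D15 and in 17 afterwards. PCK1 was well above background on 0 of 4 arrays at D4 and at D15 and on 4 of 4 at D30 + DMSO. Sterol and fatty acid synthesis rose in 4 of 33 cases by D15 and in 8 afterwards, with medians of 0.05 and 0.64. Among the genes that fell, the chemokine list had 2 of 17 lower by D15 and 7 lower afterwards, with medians of 0.07 and -1.41, and CCL2 changed by -0.96, not called, and then by -1.95. The matrix list had 14 of 45 lower by D15 and 10 lower afterwards. CDH11 changed by -0.72, not called, and then by -2.22, and H19 by -1.68 and then by -2.42.

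Without DMSO, 2287 genes differed between D30 − DMSO and D4 (10.4%), 1403 higher (6.36%) and 884 lower (4.01%). Between D30 + DMSO and D30 − DMSO, 1312 differed (5.94%), 385 higher with DMSO (1.74%) and 927 lower (4.2%). The plasma protein list was higher than at D4 in 31 of 31 cases without DMSO, and with DMSO against without it was higher in 3 and lower in 5. Of the P450 list, 13 of 29 were higher with DMSO than without it and 0 lower, with CYP2B6 higher by 4.31, CYP3A4 by 4.06 and CYP2E1 by 4.75. Of the chemokine list 8 of 17 and of the matrix list 10 of 45 were lower with DMSO, and of the 70 genes of G2 and M phase 1 was lower. The imprinted genes H19 and PEG10 differed by -3.13 and 1.98 between D30 + DMSO and D30 − DMSO.

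**Figure D4:**
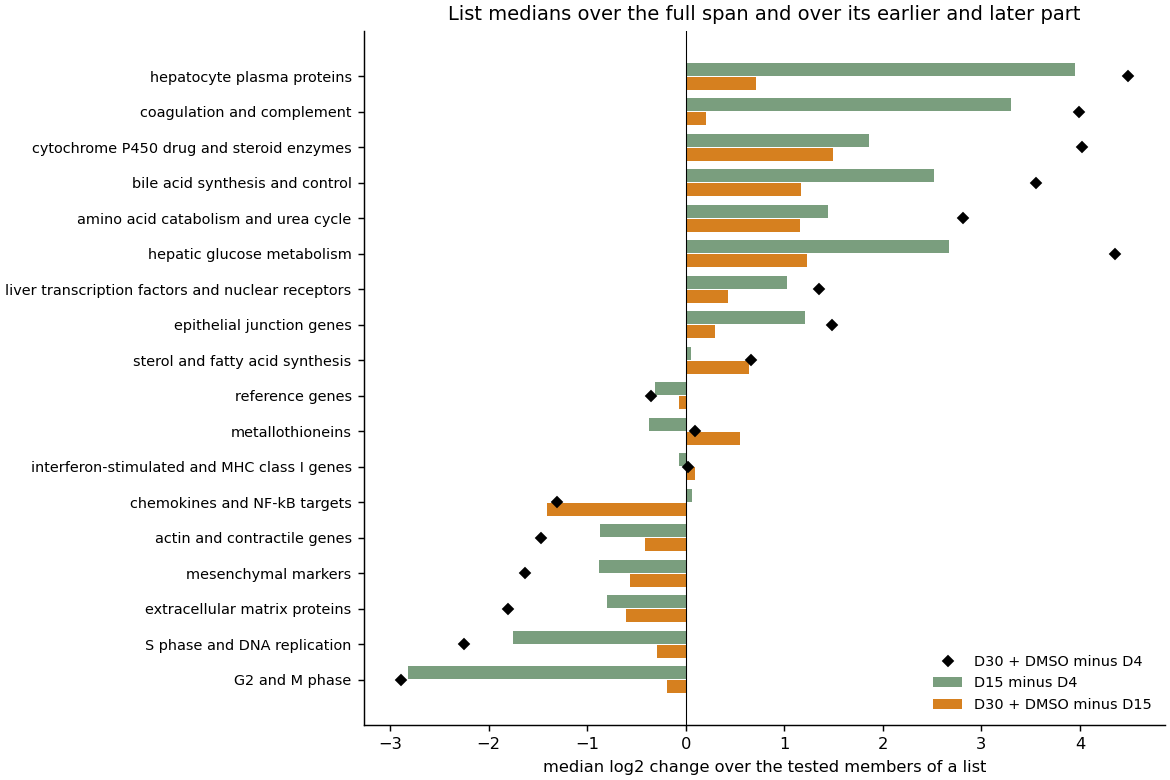
Bars are the median log2 change over the tested genes of each list from D4 to D15 (green) and from D15 to D30 + DMSO (orange), and diamonds are the median over the full span from D4 to D30 + DMSO. The green bar is the longer one for plasma proteins (3.95 against 0.71) and for G2 and M phase (-2.82 against -0.19), the orange one for chemokines (0.07 against -1.41) and sterol synthesis (0.05 against 0.64), and no error is drawn because genes of a list are not replicates.

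Some genes were higher at D15 than at both ends. SULT1E1, the estrogen sulfotransferase, read -5.69, -7.21, -7.62 and -4.70 at D4 and -5.85, -6.36, -7.60 and -8.58 at D30 + DMSO, with no array well above background at either end, and averaged -2.07 at D15 and -1.40 at D30 − DMSO. KRT23, a keratin, averaged -3.17 at D15 and -2.51 at D30 − DMSO, with 0 arrays well above background at either end, and so did SPX, a secreted peptide, with -4.04 and -4.27. These genes were chosen for this pattern and passed the filter on dim probes only through other conditions, so their values are a description. Whether they returned to their D4 level was not measured. HK2, or hexokinase of growing tissues, differed by 0.02 over the full span but by 1.87 from D4 to D15 and by -1.86 from D15 to D30 + DMSO.

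The D30 + DMSO arrays did not all agree on the liver lists. The mean over the 31 plasma protein genes was 5.59, 5.46, 5.55 and 4.90 on the 4 arrays, over the 30 clotting and complement genes 2.34, 2.21, 2.04 and 1.33, and over the 12 acute-phase genes 5.24, 5.10, 5.01 and 3.73. D30 + DMSO replicate 4 was the lowest in 24 of the 39 lists, these 3 included. Among the others were the transporters, with -0.44 against 0.03 to 0.20, bile acid genes, with 1.37 against 1.78 to 1.93, amino acid genes, with 2.30 against 2.62 to 2.78, and P450 genes, with 2.22 against 2.35 to 2.48. At D4 the highest mean was that of replicate 4 for plasma proteins, with 1.72 against 0.19 to 1.13, and it shares a slide with D30 + DMSO replicates 3 and 4. In spite of this spread the 4 arrays of the ends did not overlap in the mean of any of the 8 lists plotted. Within the slide of D4 replicate 3 the median change of the plasma protein list was 5.21 and that of G2 and M phase -2.93, within the slide of D4 replicate 4 they were 3.36 and -2.82, and with the slide as a block 4.51 and -3.00.

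**Figure D5:**
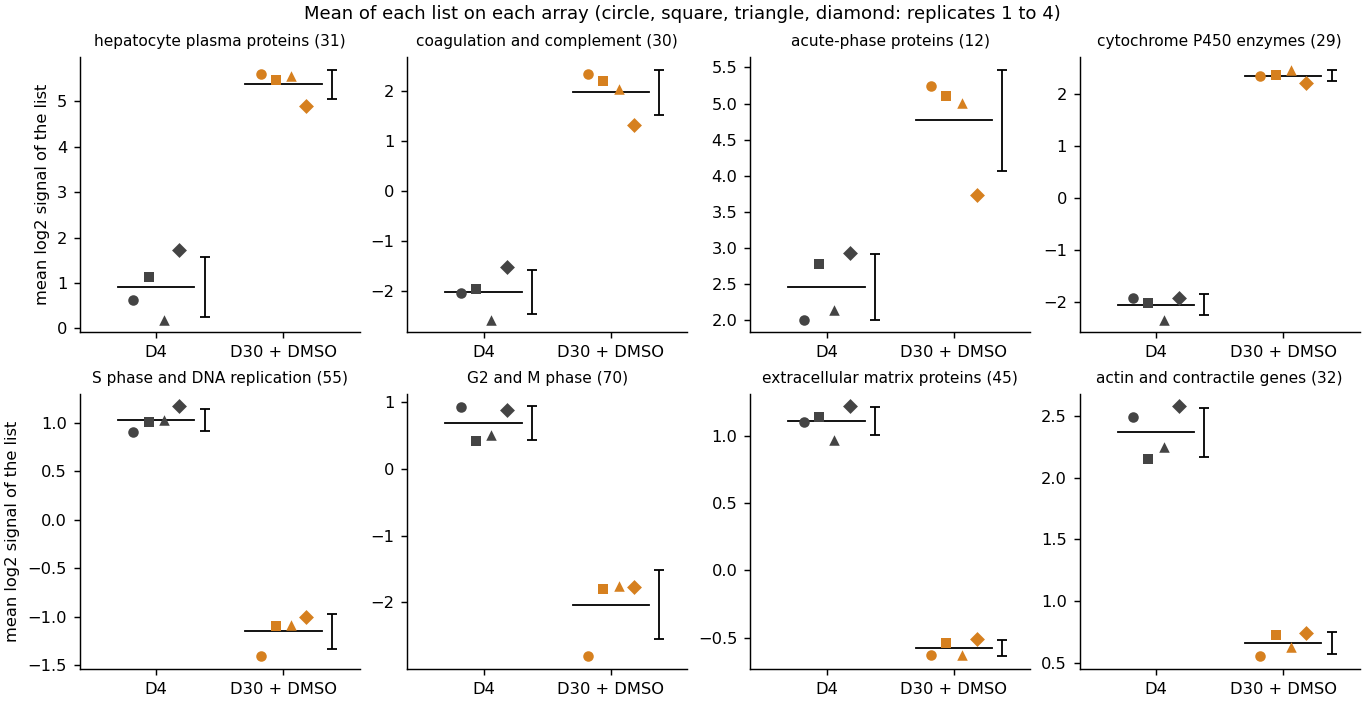
Each symbol is the mean log2 signal of a list on 1 array, with circle, square, triangle and diamond for replicates 1 to 4, the line as the mean of 4 arrays and the bar as their SD, on axes with their own range. D30 + DMSO replicate 4 (diamond) is the lowest for plasma, clotting and acute-phase genes, replicate 1 (circle) is the lowest for G2 and M phase with -2.81, and no list overlaps between D4 and D30 + DMSO.

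Markers of other cell types of liver, blood and gut were measured beside these results, and their part in them was not tested. Of all genes, 9% rose and 9.42% fell. Members below the filter on dim probes were 5 of 12 macrophage and leukocyte, 5 of 8 stellate, 3 of 7 intestinal and 1 of 6 erythroid markers. The counts below therefore cover only members with signal in some condition. Of 8 endothelial markers, PECAM1, VWF, STAB2, LYVE1 and CLEC4M were not among the genes tested, and of the 3 tested 0 were called by limma, CDH5 (0.06 ± 0.16), KDR (0.32 ± 0.45) and TEK (-1.15), with list means from -3.49 to -2.59 at D4 and from -3.59 to -3.09 at D30 + DMSO. Of 7 macrophage and leukocyte markers, 2 rose, CD68 (1.37 ± 0.22) and CD163 (at least 1.63-fold, with 0 D4 arrays and 3 D30 + DMSO arrays well above background), and MARCO fell by 2.60 on the log2 scale. CD68 (1.24) and MARCO (-2.34) were not called with only the 8 arrays and slides as blocks. Their list mean ranged from -2.43 to -2.14 at D4 and from -2.27 to -1.30 at D30 + DMSO. Of 3 stellate cell markers, 2 fell and DES was not called (-0.03 ± 0.32), with list means from 0.82 to 1.20 and from -0.43 to -0.32. Of 4 intestinal markers, VIL1 rose by 3.51 ± 0.43, LGALS4 by 2.71 ± 0.19 and CDX1 by 1.22 (its other probe changed by -0.28 and was not called), and MUC2 was not called (0.24), and of 4 erythroid markers 1 rose.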

How the data were processed

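Total RNA of HepaRG cells was measured on 20 one-color Agilent arrays, and only the 4 arrays of D4 and the 4 of D30 + DMSO are the members of the comparison. The authors deposited the Feature Extraction output of each array, whose processed signal is an intensity after background subtraction and spatial detrending, with no scaling across arrays. The submitters' processing notes name Feature Extraction 10.7.3.1 and the file headers 10.7.1.1. A deposited matrix gives log2 values against a baseline that could not be identified. For 21300 probes it matched the values used here with an array shift of at most 0.0188 and a median absolute difference of 3.03e-07, and its column medians ran from -0.204 to 0.171.

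There were 58717 non-control spots per array, for 42405 probes. Between 311 and 639 spots of a compared array that Feature Extraction had flagged as outliers were left out, saturated spots were kept, and between 7.81% and 16.3% of spots were at or below 0. Spots of a probe were averaged, scaled to the 75th percentile over probes and put on the log2 scale with a floor of 1. A probe was kept if all 4 arrays of some condition were well above background, which left 26351, and each gene was represented by its brightest probe on average. This gave 22069 genes, 14082 with a current RefSeq symbol and 3675 with more than 1 probe. Of these 3675, 952 had a called probe and 428 of the 952 had all probes called alike. A RefSeq accession gave a symbol for 24823 probes, and the other 17582 kept the name on the array. With 4 arrays a condition, which is what limits precision here, an exact permutation test of 4 arrays against 4 could not go below p = 0.0286.

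A linear model with 5 condition means was fitted over the 20 arrays with limma 3.58.1 in R 4.3.3. A call needed an adjusted p (Benjamini-Hochberg) under 0.005 and over 2-fold change, which are the thresholds of the study's methods, with limma's test in place of their t-test. Errors of changes are the fit's standard errors over 4 arrays per condition. Promoter letters were counted in the RefSeq table with Python 3.11.15 and pandas 2.3.3, and plots were drawn with matplotlib 3.10.9.

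Named genes are the 12 largest rises and the 12 largest falls by fitted change. Of each list they include up to 4 defining members and the 3 called members with the largest change. They also include the 8 highest bounds in each direction and the 5 largest excursions at D15 in each direction. Some genes that this rule names are not reported here. The members of the comparison and the gene lists were chosen with earlier results of these data known. In simulated data for this comparison, 161 of 200 probes changed 4-fold (80.5%) were recovered among 26069 kept probes with a value on every array, before 1 was chosen per gene, and 1 unchanged probe was called.

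The alternatives were quantile normalization, limma's normexp correction with an offset of 50 on the median spot intensity, the matrix values, other filters on dim probes, every probe tested, a floor of 10, the slide, the scan session or the replicate number as a block, the methods' t-test, only the 8 arrays compared, an adjusted p below 0.05, more than 3-fold, and leaving out each array in turn. Keeping the outlier spots, and the 8 arrays with the slide as a block, were chosen after seeing the data. The replicate numbers were not taken to pair the samples.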

Additional observations from a re-analysis of the deposited data

Results flagged for a closer look

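Among the 4 arrays of an end, 1 array stood far from the other 3 in 30 of 332 groups of values examined for the named genes (9.0%). The ratio given is the gap from that array to its nearest neighbour over the range of all 4, which passed Dixon's limit for 4 values, as chance alone does in about 1 of 20 groups. Where 3 arrays lie at the floor, the ratio is 1.000 by construction and that rate does not apply. This was so for CNN1, IL7R and MMP2 at D30 + DMSO and for CYP2C19 at D4.

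D30 + DMSO replicate 4 was the lowest array for 12 genes, most of them secreted or metabolic proteins of the hepatocyte. The ratios were 0.860 for AFP, 0.901 for CDH2, 0.883 for F2, 0.853 for FABP1, 0.841 for HNF4A, 0.845 for KNG1, 0.913 for LEAP2, 0.894 for OTC, 0.902 for SAA1, 0.916 for SERPINC1, 0.926 for SULT2A1 and 0.909 for TAT. TAT read -2.09 on this array and between -0.65 and -0.51 on the others. The same array was the highest for CCND1 (0.921), at 0.75 against -0.65 to -0.54, and for SPOCD1 (0.923). D30 + DMSO replicate 1 was the lowest for CEP55 (0.840), DLGAP5 (0.942), EZH2 (0.897) and LEF1 (0.837). D30 + DMSO replicate 2 was the highest, with the other arrays at the floor, for CNN1 (1.000), IL7R (1.000) and MMP2 (1.000), and replicate 3 was the highest for SPX (0.899).

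D4 replicate 4 was the highest array for C3 (0.894), CYP2C19 (1.000), PEG10 (0.905), SLC10A1 (0.872), SOX9 (0.854) and TIMP1 (0.980). TIMP1 read 4.80 on it and between 3.87 and 3.89 on the others. D4 replicate 1 was the highest for APOA4 (0.865) and the lowest for KRT23 (0.871).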

How the results depend on the processing

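From D4 to D30 + DMSO, leaving out 1 array at a time gave from 1860 to 2020 genes higher and from 1964 to 2080 lower. Fewer genes were called with the normexp correction, 1319 higher and 1263 lower, with the methods' t-test, 1305 and 1377, and at more than 3-fold, 1151 and 1163. In the comparisons that divide the span, the normexp correction called 809 genes higher from D4 to D15, 409 lower from D15 to D30 + DMSO, 924 higher from D4 to D30 − DMSO and 404 lower with DMSO than without it at D30. With the filter that needs signal on all 20 arrays, these counts were 812, 611, 909 and 567. The methods' t-test called 647 higher and 411 lower from D4 to D15, 211 and 328 from D15 to D30 + DMSO, 816 and 492 from D4 to D30 − DMSO, and 175 and 358 with DMSO against without it. At more than 3-fold these counts were 798 and 417, 195 and 503, 897 and 429, and 118 and 520.

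Of the lists, the filter for all 20 arrays, which tests fewer genes, gave 11 P450 genes, 11 transporters, 6 bile acid genes, 6 glucose genes, 7 junction genes and 1 macrophage marker higher. The normexp correction gave 4 G1 genes and 4 interferon genes lower and 1 macrophage marker higher. The methods' t-test gave 11 transporters, 6 sterol genes, 5 acute-phase genes and 5 IGF and TGF-beta genes higher, and 1 glycolytic gene, 2 biliary markers, 4 chemokine genes and 1 stellate marker lower. At more than 3-fold there were 5 sterol genes, 1 ATF4 gene, 1 histone or DNA modifying enzyme, 1 macrophage marker and 0 erythroid markers higher, and 4 G1 genes, 1 biliary marker, 1 interferon gene and 1 stellate marker lower. With every probe tested, 1 metallothionein, MT1X, was higher. Only the 8 arrays compared gave 6 acute-phase genes higher. The 8 arrays with the slide as a block, chosen after seeing the data, gave 3 acute-phase and 5 IGF and TGF-beta genes higher, and 2 biliary and 3 interferon genes lower. Leaving out 1 array gave from 1 to 2 glycolytic genes and from 4 to 7 interferon genes lower. The causes of the other differences were not tested. The other counts recomputed, which for the lists are those of the full span in 1 direction per list, stayed within 1.5 times of those given above. List counts of the shorter comparisons were not recomputed.

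Of the named genes, LAMA4 changed direction, to 0.90 with probes well above background on all 20 arrays, which leaves another of its probes. Apart from the t-test and the limit of 3-fold, the normexp correction ended the calls for CCNB1, CD163, HAPLN1, HNF4A, IL6, INHBA, MARCO, MMP2 and VIM, no filter and only the 8 arrays that for SAA1, and quantile normalization that for CES1. The 8 arrays with the slide as a block ended those for CD24, CD68, CES1, CPS1, H19, IGFBP1, INHBA, KRT19, MARCO, MKI67, SAA1, TAGLN, TOP2A and VIM. With the outlier spots kept, also chosen after seeing the data, CCNB1 was not called. No depth is given by arrays, and for genes near or below background only bounds can be had.

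Same-numbered arrays of D4 and D30 + DMSO deviated from their group means with correlations of 0.228, 0.0999, -0.172 and 0.571, so the numbers were not taken to pair the samples. With the replicate number as a block, 2135 genes were higher and 2241 lower.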

Other observations

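The arrays of D34 ± DMSO, on which cells had been without DMSO for 4 days after D30 + DMSO, were not part of the comparison, and their values are given without a test (log2 signal, mean ± SD, n = 4). CDK1, of the cell cycle, averaged 2.27 ± 0.19 at D34 ± DMSO, -1.61 ± 0.61 at D30 + DMSO and 1.96 ± 0.13 at D4. E2F2 averaged 1.02 ± 0.73, -3.02 ± 0.15 and 1.22 ± 0.30, and TYMS 5.37 ± 0.24, 3.01 ± 0.26 and 5.55 ± 0.10 in the same order. The drug-oxidising enzyme CYP3A4 averaged 0.76 ± 0.39, 7.26 ± 0.15 and -2.58 ± 0.20, and CYP2B6 1.38 ± 0.26, 6.42 ± 0.36 and -2.16 ± 0.51. ALB averaged 9.98 ± 0.19, 10.22 ± 0.38 and 7.59 ± 0.64. The imprinted gene PEG10 and the regulator SOX9, both higher at D30 + DMSO than at D4, averaged 2.00 ± 0.43 and -3.31 ± 0.40 at D34 ± DMSO and 2.12 ± 0.39 and -3.43 ± 0.57 at D4.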
